A study of Mus musculus with 2 samples.

Results

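The miRNA genes Mir126a, Mir221 and Mir222, grouped here as endothelial miRNAs, were read out in whole hearts of mouse embryos at embryonic day 16.5. The 3 genes were chosen by name, through the Ensembl identifier of their row, and are 3 of 1973 miRNA genes listed in the count tables. Small RNA (microRNA-seq, labelled size range under 30 with no unit) was sequenced from total RNA of strain B6NCrl embryos of both sexes, labelled healthy. No treatment or altered allele is named. The labels define 1 group with 2 biological replicates, each a pool of hearts. Replicate 2 came from 41 embryos, and no number of embryos was given for replicate 1. With 1 group there is no contrast of conditions, and the questions addressed were how abundant each gene was, how the genes stood to each other and how far the 2 pools differed.

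miRNAs are short RNAs cut from a hairpin precursor. They bind messenger RNAs mainly through their seed, bases 2 to 8, and lower the output of those messengers. miR-126 comes from a hairpin inside Egfl7, a gene of endothelial cells, the cells that line blood vessels. It is known for supporting vascular endothelial growth factor signalling by repressing Spred1 and Pik3r2, and mice without it develop leaky vessels. miR-221 and miR-222 come from neighbouring hairpins on the X chromosome and share a seed. They are known for repressing the receptor Kit in endothelial cells, where they restrain vessel growth, and the cell cycle inhibitor Cdkn1b in vascular smooth muscle, where they favour proliferation. Expression of these 2 miRNAs is therefore not limited to endothelium, and whole hearts do not tell which cells the reads came from.

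The mature sequences below show why Mir221 and Mir222 form a seed family and Mir126a stands outside it. They are the RefSeq entries on GRCm38.p6, written 5′ to 3′ with the seed in capitals, and all 3 genes matched an entry by symbol.
miR-126a-3p: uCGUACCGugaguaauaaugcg
miR-221-3p: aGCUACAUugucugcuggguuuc
miR-222-3p: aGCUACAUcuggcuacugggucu
miR-221-5p: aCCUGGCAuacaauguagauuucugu
The 3p forms of Mir221 and Mir222 were identical over their first 8 bases and at 11 of 23 positions when set side by side from base 1 without gaps. Beyond the seed the sequences differed enough to be told apart, as the longest run shared by the 2 hairpins was 9 bases. Among the RefSeq mature miRNAs, the seed of miR-126a-3p was found in no other gene. The seed GCUACAU was found in 1 further gene, Mir1928, which is listed in the tables and had 0 counts in both libraries.

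The hairpins are given next with the mature forms listed above in capitals, because the counts are per hairpin gene and do not separate the arms of a hairpin. An arm in lower case has no mature form listed here, which does not mean that it yields no reads.
Mir126a hairpin: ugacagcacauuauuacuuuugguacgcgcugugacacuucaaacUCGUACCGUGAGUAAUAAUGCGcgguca
Mir221 hairpin: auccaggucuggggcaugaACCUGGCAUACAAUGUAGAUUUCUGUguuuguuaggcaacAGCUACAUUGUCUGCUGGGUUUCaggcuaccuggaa
Mir222 hairpin: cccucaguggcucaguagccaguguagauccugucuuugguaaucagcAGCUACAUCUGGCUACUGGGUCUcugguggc
A read with more than 1 match was left out of all genes, so a copy elsewhere would lower a gene's count. No hairpin of the 3 shared more than 13 bases in a row with any of 1004 other RefSeq miRNA hairpins, on either strand, leaving out genes that overlap it. Among 141767 transcripts of GENCODE M21, the exact miR-221-3p and miR-222-3p sequences occurred only in Mir221 and in Mir222, each in its own gene. The miR-126a-3p sequence occurred in Mir126a and in Egfl7, which hold the same stretch of chromosome 2. The other arm of each hairpin was not searched for in the transcripts. The rest of the genome was not searched.

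Mir126a (ENSMUSG00000065540.1) lies at chr2:26591357-26591429 of mm10 on the plus strand. It lies within Egfl7 (chr2:26580014-26593120, same strand), and 9 annotated Egfl7 transcripts span it. The hairpin was intronic in 8 of them and exonic in 1, a transcript annotated as a retained intron. It was also intronic in Gm20532, a gene model of the same strand that runs on beyond Egfl7. Mir221 (ENSMUSG00000065422.1; chrX:19146294-19146388) and Mir222 (ENSMUSG00000065471.1; chrX:19146893-19146971) lie on the minus strand with 504 bases between them, and no annotated gene of another type spans either hairpin.

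**Figure D1:**
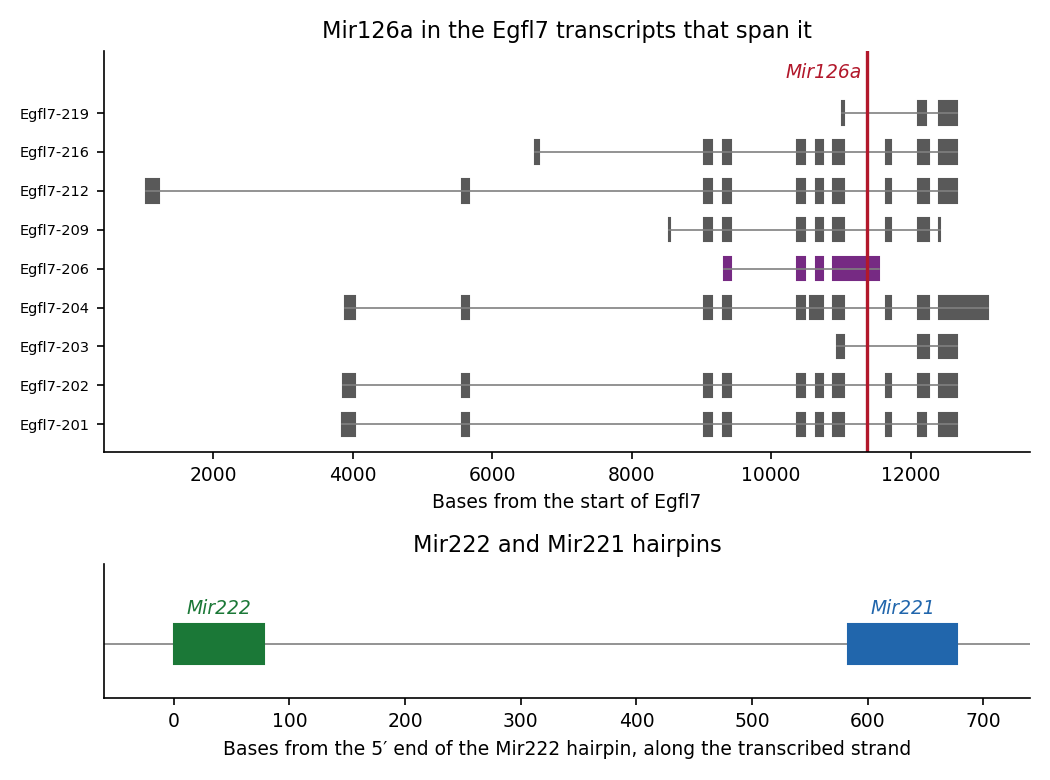
Position of the hairpins in their loci. The upper panel shows the 9 Egfl7 transcripts that span Mir126a (boxes are exons, the retained-intron transcript in purple, the red line the hairpin) against bases from the start of Egfl7; the line crosses an exon in 1 of 9. The lower panel shows Mir222 and Mir221 along their transcribed strand, 504 bases apart.

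The 3 genes differed widely in level. By sense counts of reads with 1 match, Mir126a was second in mean level among the listed miRNA genes, and Mir221 and Mir222 lay below the median of detected genes. Reads matching several places (29.5% and 31.9% of reads) were counted nowhere, and opposite-strand reads do not enter the ranks. A gene with such reads may therefore be more abundant than its rank here. Levels are given as CPM, the gene's sense-strand count divided by the sense total of all miRNA genes in the library and multiplied by 1000000. Detection required at least 10 sense counts in both libraries, which held for 365 of the 1973 genes and for all 3 members. Mir126a had 555918 counts in replicate 1 and 491987 in replicate 2. Those are 85876 CPM (95% Wilson interval 85661 to 86092) and 84222 CPM (83997 to 84447), a mean of 85049 ± 1170 CPM (SD, n = 2). The libraries lay within 1.38% of their mean by the coefficient of variation, although the counting intervals did not overlap.

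Mir221 had 448 counts in replicate 1 and 579 in replicate 2. Those are 69.2 CPM (63.1 to 75.9) and 99.1 CPM (91.4 to 108), a mean of 84.2 ± 21.2 CPM (SD, n = 2). Replicate 2 was the higher library and the intervals were well apart. Mir222 had 217 counts in replicate 1 and 203 in replicate 2, or 33.5 CPM (29.3 to 38.3) and 34.8 CPM (30.3 to 39.9), a mean of 34.1 ± 0.87 CPM (SD, n = 2). Its libraries overlapped within counting error. In bulk tissue, a lower level can come from fewer cells of a type or from less RNA per cell, which cannot be told apart. Intervals cover only the error of counting reads within a library. No molecular identifiers are named in the sources used here, so repeated reads of 1 molecule cannot be set apart.

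**Figure D2:**
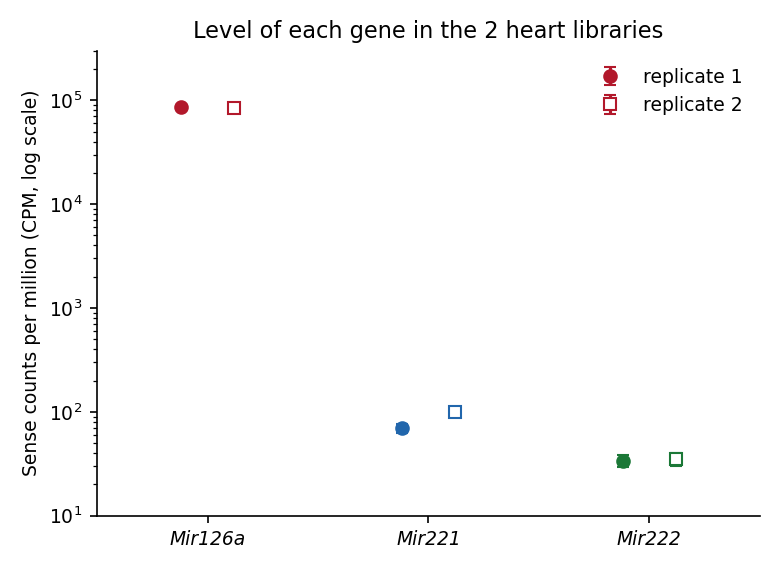
Level of Mir126a, Mir221 and Mir222 in replicate 1 (filled circles) and replicate 2 (open squares), as CPM on a log axis; bars are 95% Wilson intervals of the counts and mostly lie within the symbols. Mir126a sits at 84222 CPM or higher in both libraries, and the other 2 genes sit below 100 CPM.

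Together the 3 genes held 8.60% of sense counts in replicate 1 (8.58 to 8.62) and 8.44% in replicate 2 (8.41 to 8.46). Mir126a made up 99.88% and 99.84% of those counts. Mir221 and Mir222, which carry the same seed, came to 665 counts in replicate 1 and 782 in replicate 2, or 103 and 134 CPM when summed. The sum over the seed family was thus near the level of the median detected gene, 108 CPM.

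Ranked by mean CPM, Mir126a stood second after Mir143, a smooth muscle miRNA at 96177 and 96669 CPM, whose libraries both lay above those of Mir126a. Next came Mir335, with 71481 CPM in the first pool (replicate 1) against 93666 CPM in replicate 2. This range encloses that of Mir126a, so the order of these genes depended on the library, and Mir126a ranked 2 in replicate 1 and 3 in replicate 2. Mir322, at 76479 and 67719 CPM, lay below Mir126a in both libraries. Mir221 ranked 196 by mean, 207 in replicate 1 and 187 in replicate 2. Its neighbours in level, Mir1981, Mirlet7c-2, Mir204 and Mir486, had means of 83.5 to 89.2 CPM, and all 4 ranges overlapped that of Mir221. Mir222 ranked 233 by mean, with 232 detected genes above it and 132 below. Its neighbours Mir33, Mir194-2, Mir450-2 and Mir103-2 had means of 33.1 to 34.6 CPM and also overlapped it. The place of Mir221 and Mir222 within these stretches is therefore not resolved by 2 libraries.

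**Figure D3:**
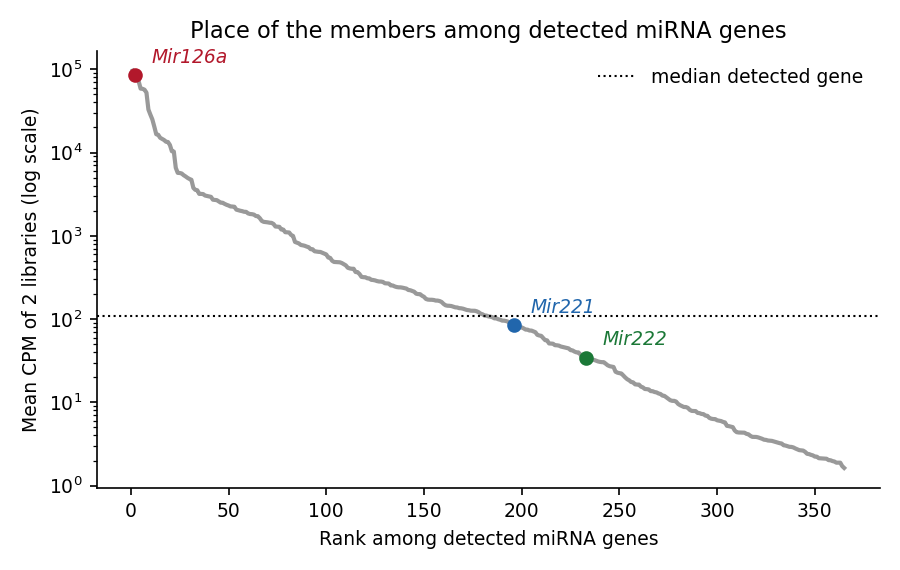
Mean CPM of the 365 detected miRNA genes (log axis) against their rank, with the 3 members marked and the median gene as a dotted line. Mir126a lies at rank 2 and the other members at ranks 196 and 233, below the median of 108 CPM.

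The detected genes most like each member were found by the distance between log2 CPM values over the 2 libraries. For Mir126a these were Mir143 (distance 0.26), Mir335 (0.31) and Mir322 (0.36). For Mir221 they were Mir146, the gene of miR-146a (0.24), Mir669c (0.26) and Mir30c-1 (0.26). Mir146 and Mir30c-1 were, like Mir221, higher in replicate 2, at 81.1 and 79.2 CPM in replicate 1 and 105 and 112 CPM in replicate 2. For Mir222 they were Mir194-2 (0.029), Mir33 (0.054) and Mir668 (0.14). With 2 libraries of 1 group, this likeness describes level more than any pattern.

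Ratios between the members do not depend on how the libraries are scaled. Mir126a exceeded Mir221 1241-fold in replicate 1 (exact 95% interval 1131 to 1364) and 850-fold in replicate 2 (783 to 923), and these intervals did not overlap. It exceeded Mir222 2562-fold (2243 to 2940) and 2424-fold (2112 to 2795), which overlapped. On the log2 scale Mir126a exceeded Mir221 by 10.28 in replicate 1 and 9.73 in replicate 2 (SD 0.39, n = 2), and Mir222 by 11.32 and 11.24 (SD 0.057, n = 2). Within the X-linked pair, Mir221 exceeded Mir222 2.06-fold in replicate 1 (1.75 to 2.44) and 2.85-fold in replicate 2 (2.43 to 3.36), a log2 ratio of 1.28 ± 0.33. Mir221 was thus the more abundant of the pair in both libraries by more than counting error, and the intervals of the libraries overlapped narrowly. Whether these miRNAs are read with equal efficiency was not tested, so ratios of different genes are ratios of counts.

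The pair was set beside other neighbouring miRNA genes, taking adjacent detected genes of 1 strand with at most 1000 bases between them. Besides Mir221 and Mir222 there were 65 such pairs. The size of the log2 level ratio was 1.28 for Mir221 and Mir222, against a median of 3.45 in the other pairs (range 0.15 to 10.07), of which 15 were closer in level. The ratio changed by 0.47 between the libraries, against a median change of 0.20, and 11 other pairs changed more. By these sizes, the members of this pair were nearer in level than most neighbours, and their ratio changed more than most between pools. The intervals of that ratio in the 2 libraries overlapped narrowly, which is not a test of the change. Pairs differ in their counts, and the counting error of each pair was not set against its change. All pairs were read in the same 2 libraries. How many reads were lost to several matches in each pair was not tested.

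**Figure D4:**
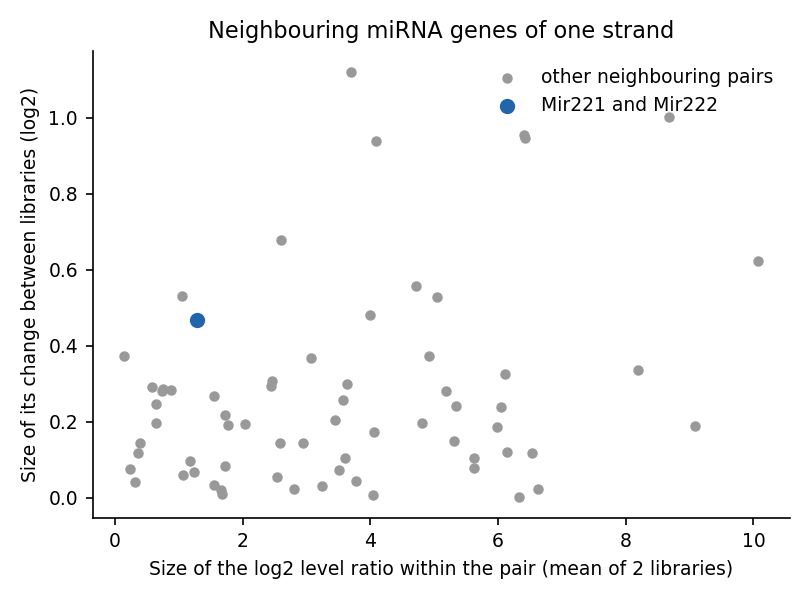
Neighbouring miRNA genes of 1 strand. The horizontal axis is the size of the log2 level ratio within a pair (mean of 2 libraries) and the vertical axis is how much that ratio differed between libraries; grey points are the 65 other pairs and the blue point is Mir221 with Mir222, at 1.28 and 0.47.

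Of the 3 members, Mir221 differed between the pools, Mir222 did not pass the test, and Mir126a gave a difference so small that its call turned on the scaling. Each gene's counts in the pools were set against TMM-scaled library sizes (edgeR's trimmed mean of M-values) in an exact two-sided binomial test, adjusted by Benjamini-Hochberg over the 365 detected genes. It compares 2 libraries, not conditions. At an adjusted p under 0.05, 46.3% of detected genes passed, 26.0% lower and 20.3% higher in replicate 1. With at least a 2-fold difference as well, 3.29% of genes were called (1.64% lower in replicate 1), and none of the 3 members was among them.

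Mir221 was lower in replicate 1 than in replicate 2, with a log2 ratio of replicate 1 over replicate 2 of -0.54 (counting standard error 0.091; exact binomial test, adjusted p = 7.92e-09). It was 1.46-fold higher in replicate 2. Its ratio was larger in size than that of 83.6% of detected genes. Among the 69 other genes within 2-fold of its mean level, the median size was 0.20 and 6 had a larger one. Mir222 gave -0.077 (standard error 0.14; adjusted p = 0.707 by the same exact test), and 38 of the 49 genes near its level had a larger difference. At 217 and 203 counts, a difference of that size was not detectable. The difference between Mir221 and Mir222 was itself not tested; the change of their ratio is given above.

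Mir126a gave a log2 ratio of 0.0026 (standard error 0.0028; adjusted p = 0.487 by the exact test). With TMM scaling, all 7 other genes within 2-fold of its level differed more between the pools, and all 7 passed the test. With scaling by totals, and with size factors from DESeq2, Mir143 and Mir99a differed less than Mir126a and 5 of the 7 differed more, so its place among them depends on the scaling. The comparison with these 7 genes, under each scaling, was chosen after seeing the data. With total-count scaling the log2 ratio of Mir126a was 0.028 with an adjusted p of 1.92e-22 by the same exact test, at counts that give a standard error of 0.0028. Across the alternatives the ratio stayed between 0.00027 and 0.028, while the adjusted p lay anywhere between 1.92e-22 and 1.0.

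**Figure D5:**
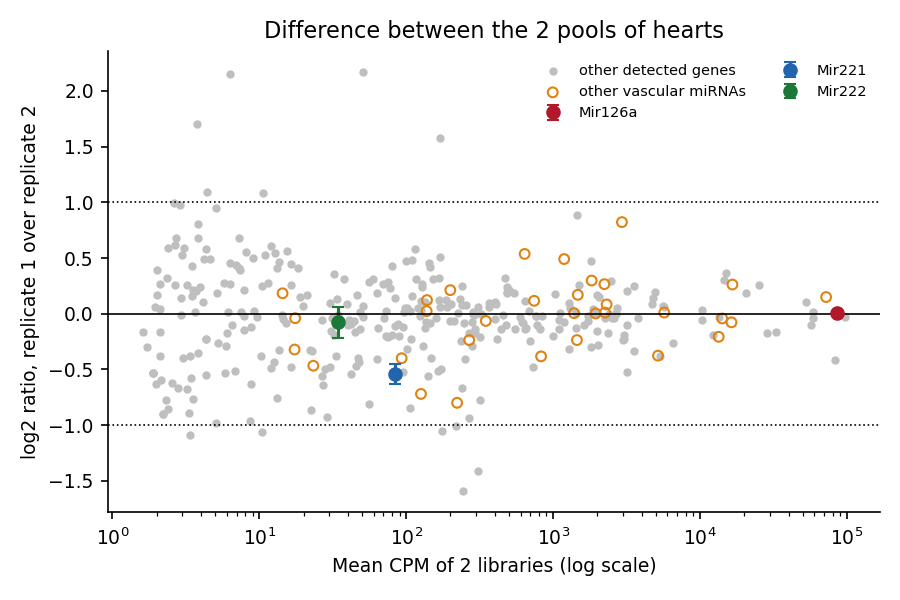
Log2 ratio of replicate 1 over replicate 2 against mean CPM (log axis) for the 365 detected genes; bars on the 3 members are counting standard errors, orange circles are 32 other vascular miRNAs, and dotted lines mark a 2-fold difference. Mir126a lies at 0.0026, Mir222 at -0.077 and Mir221 at -0.54.

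The opposite strand was examined because Mir126b is annotated against Mir126a. Mir126b is not among the listed genes, and its hairpin (chr2:26591363-26591420, minus strand) lies wholly within that of Mir126a. Its RefSeq mature forms are shown with the seed in capitals, since a read of them would fall on the opposite strand of Mir126a.
miR-126b-5p: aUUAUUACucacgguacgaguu
miR-126b-3p: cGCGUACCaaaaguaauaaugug
The 5p form overlaps miR-126a-3p over 19 bases in antisense. At Mir126a, 26 opposite-strand counts were found in replicate 1 and 17 in replicate 2. Those are 0.00468% of its counts of either strand (95% Wilson interval 0.00319 to 0.00685) and 0.00346% (0.00216 to 0.00553). On the scale of the sense totals they came to 3.46 ± 0.78 CPM (SD, n = 2). Reads of Mir126a itself placed on the wrong strand and reads of Mir126b cannot be told apart in these counts. Mir221 and Mir222 had 0 opposite-strand counts in both libraries. A count of 0 allows up to 0.670% and 0.518% of the reads at Mir221, and up to 1.38% and 1.48% at Mir222, so a share as low as that at Mir126a was not detectable there.

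A list of 33 other miRNAs described in blood vessels was used for context, of which 32 were listed in the tables and all 32 were detected. Mir126a stood above all 32, whereas 28 stood above Mir221 and Mir222 and 4 below. Those 4 were Mir218-1 (mean 14.4 CPM), Mir181b-1 (17.4), Mir19a (17.5) and Mir218-2 (23.3). Reads matching several places were counted nowhere, so list members with further gene copies may be more abundant than these levels. How many reads each list member lost in this way was not tested. Of the 32, 11 were higher and 11 lower in replicate 1 and 10 did not pass the test, with a median log2 ratio of 0.0081, against -0.018 over all detected genes. Over all detected genes, 20.3% were higher and 26.0% lower in replicate 1. None of the list was called at 2-fold, against 3.29% of all detected genes. The list's members had a median level of 1288 CPM against 108 CPM over all detected genes, and whether depth sets the share that passed was not tested.

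Among 10 miRNAs described as promoting vessel growth, 5 were higher and 2 lower in replicate 1, where all detected genes gave 20.3% higher and 26.0% lower. No difference between roles was tested. The most abundant was Mir130a, known for repressing antiangiogenic homeobox genes in human endothelial cells, at 16065 and 16648 CPM (16357 ± 412). Mir10a, which favours vessel growth in zebrafish, had 3778 CPM in replicate 1 and 2098 in replicate 2, a log2 ratio of 0.82. Of 14 listed miRNAs described as restraining it, 5 were higher and 5 lower. They were led by Mir322, the mouse counterpart of human miR-424, at 72099 ± 6195 CPM, and by Mir17, which is made from a transcript shared with other miRNAs, at 13389 ± 1189 CPM. Of 8 described in blood flow or vessel inflammation, 1 was higher and 4 lower in replicate 1. Mir23b (16606 ± 2335 CPM) and Mir21a (14148 ± 117 CPM) were the highest of these (SD, n = 2 each). These miRNAs are not limited to vessels.

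Markers of other cell types were used for context, and their shares of counts do not measure the makeup of the tissue. The 3 cardiac muscle markers, Mir208a, Mir208b and Mir499, held 6.77% and 6.71% of sense counts, and the smooth muscle Mir143 and Mir145a 9.73% and 9.81%. The muscle genes Mir1a-1 (19 counts in replicate 1, 11 in replicate 2) and Mir133a-1 (19 and 14) were not among the markers. Reads matching several places were counted nowhere, and how many such reads each muscle gene lost was not tested. The order of the cardiac and smooth muscle shares is therefore not an order of the tissues. The erythroid Mir451a, Mir144 and Mir486 held 0.212% and 0.180%, with all 3 detected. The opposite strand of Mir486, where Mir3107 is annotated, held 39 counts in replicate 1 and 40 in replicate 2, outside this share. Whether each marker is limited to its cell type in these hearts was not tested. The leukocyte Mir223, Mir150, Mir155 and Mir142b held 0.0586% and 0.0717%, with 3 of 4 detected and Mir142b at 0 and 1 counts. The opposite strand of Mir142b, where Mir142 of blood cells is annotated, held 11332 counts in replicate 1 and 19615 in replicate 2. Those counts lie outside the leukocyte share, which therefore cannot be ranked against the erythroid share. Mir155 is also in the vascular list, under blood flow or vessel inflammation. Mir155 (164 CPM in replicate 1, 280 in replicate 2) and Mir150 (23.3 and 32.4) were higher in replicate 2, as Mir221 was, with log2 ratios of replicate 1 over replicate 2 of -0.80 and -0.50 (adjusted p = 3.94e-45 and 0.00411, exact binomial test). Mir223, at 399 and 405 CPM, did not pass. Of the muscle markers, Mir145a, Mir143 and Mir208a were also higher in replicate 2 by the same exact test. The smooth muscle Mir145a had 1160 CPM in replicate 1 and 1417 in replicate 2 (log2 ratio -0.31, adjusted p = 1.09e-41), and Mir143 gave -0.033 (adjusted p = 2.61e-34). With scaling by totals and with DESeq2 size factors, Mir143 differed less than Mir126a, whose call turned on the scaling. The cardiac Mir208a had 6028 and 7084 CPM (-0.26, adjusted p = 8.72e-141), whereas Mir208b was slightly higher in replicate 1 (0.016, adjusted p = 1.68e-05) and Mir499 did not pass. The erythroid Mir451a was higher in replicate 1 (0.26, adjusted p = 7.49e-33), and Mir144 and Mir486 did not pass. The part of any of these cell types in the difference of Mir221 was not tested.

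The libraries held 15207730 and 12885555 reads, with 6473482 and 5841568 sense counts at miRNA genes. Reads matching several places, 29.5% and 31.9%, were counted nowhere. Of all reads, Mir126a made up 3.66% and 3.82%, below its share of the sense total.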

How the data were processed

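The tables deposited by the authors hold unnormalized read counts for each miRNA gene, made on mm10 with annotation M4, per the file lists deposited with each library. Aligner, counter and trimming: not given in the sources used here. There were 3 count columns in each table (either strand, and each strand alone) and 4 lines that name no gene (54.9% and 51.7% of reads), which stayed out of totals and tests. The third column of each file, with the larger gene total (94.3% and 93.9% of reads at genes), was taken as sense. Symbols, coordinates and hosts came from GENCODE M21, which matched 1894 of 1973 identifiers and all 365 detected genes. Mir146a was matched to Mir146 through RefSeq synonyms.

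CPM, Wilson and exact Clopper-Pearson 95% intervals and exact binomial tests were computed in Python 3.11.15 with scipy 1.17.1. Log2 ratios used 0.5 added to each count. TMM factors came from edgeR 4.0.16 and size factors, as an alternative, from DESeq2 1.42.0 in R 4.3.3. edgeR's quasi-likelihood test had no contrast to test in 1 group. The p-values of the binomial test measure the spread between these libraries against counting error and hold no estimate of the spread among animals. Hairpins were folded with RNAfold 2.7.2.

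Named genes were the members, the 2 detected genes next above and below each in level, the 3 nearest in log2 CPM, genes of the same seed, all cell type markers, and the 2 highest of each role in the vascular list. The members and lists were chosen with earlier results of these data known. Neighbouring pairs, genes of like level and the strand comparison were added after values were seen.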

Additional observations from a re-analysis of the deposited data

Results flagged for a closer look

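The opposite strand of Mir126a, outside the sense measurement, held 26 counts in replicate 1 and 17 in replicate 2, above the limit of 3 counts that a count of 0 allows. Of the 62 other genes with at least 10000 sense counts in each library, 57 had no opposite-strand count, 3 had a higher mean share than Mir126a (0.00407% ± 0.00086, n = 2), and the highest was 0.0677%. The 3 genes, named after their values were seen, were Mirlet7b (19 and 10 opposite-strand counts), Mir130a (15 and 9) and Mir324 (2 and 0). GENCODE M21 places no miRNA gene against any of these 3, whereas it places Mir126b against Mir126a. In all, 32 listed genes had an annotated miRNA gene on the other strand that is not itself listed. Of these, 14 had at least 10 opposite-strand counts in both libraries, and in 11 the opposite strand exceeded the sense strand in both, which was not the case at Mir126a.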

How the results depend on the processing

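Of 67 alternative values, 51 kept their direction, their call or their place within 1 SD. Part of that number was fixed in advance. With 2 libraries, leaving out 1 always gives a level, share or ratio within 1 SD of the mean. The ratio of Mir221 over Mir222 from either strand could not change, as neither gene had opposite-strand counts. With counts of either strand, Mir126a came to 80035 CPM, Mir222 to 32.1 CPM and the 3 genes together to 8.01%. Per 1000000 of all reads, Mir126a was 37368, Mir221 37.2 and Mir222 15.0, and the 3 genes 3.74%. Without Mir143 in the total, Mir126a was 94125 CPM, Mir222 37.8 CPM and the share 9.43%. These shifts follow from the changed total. The difference of Mir126a passed the test with total-count scaling (log2 ratio 0.028), DESeq2 size factors (0.020), a minimum of 50 counts (0.015) and counts of either strand (0.012). The 12 called genes became 21 without a count filter and 5 with a minimum of 50 counts. Both the set of genes tested and the TMM factors fitted on it changed with the filter. Leaving out each replicate gave 84222 to 85876 CPM for Mir126a, 69.2 to 99.1 CPM for Mir221 and 33.5 to 34.8 CPM for Mir222. Mir221 passed the test under every scaling, filter, pseudocount and strand choice tried (adjusted p 7.92e-09 to 4.14e-08), and Mir222 under none (0.707 to 0.855). No paired analysis was possible because the labels define 1 group. Depth limits Mir222, at about 200 counts a library, and the 2 libraries leave the spread among hearts poorly known.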

Other observations

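The 3 hairpins were compared with those of other detected genes. GC content was 45.2% for Mir126a, 47.4% for Mir221 and 54.4% for Mir222, against a median of 50.7% (quartiles 44.0% and 56.8%) over 316 detected genes with a RefSeq hairpin. The minimum free energy of folding was -31.2, -42.8 and -40.7 kcal/mol for hairpins of 73, 95 and 79 bases, against medians of -36.8 kcal/mol (quartiles -42.9 and -30.8) and 83.5 bases. In the predicted fold, 54 of 73 bases of Mir126a, 76 of 95 of Mir221 and 56 of 79 of Mir222 were paired. The share was 74.0% for Mir126a and 70.9% for Mir222, against a median of 72.6% (quartiles 67.8% and 76.5%). Mir221 lay above the upper quartile, with 28 of the 316 genes more paired.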
